A study of Mus musculus with 12 samples.

Results

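Neuronatin (*Nnat*) and 9 other imprinted genes known for their part in growth were followed in mouse sciatic nerve: *Igf2*, *H19*, *Dlk1*, *Meg3*, *Peg3*, *Mest*, *Plagl1*, *Cdkn1c* and *Ndn*. The members were chosen by gene symbol, and all 10 were found among the 43432 genes of the count table and were among the 17257 genes kept for testing. *Nnat* was taken up because its RNA was lower in *Mtmr2* KO than in WT control nerves of these same libraries, so that difference is described without a test. The question was whether the other imprinted genes followed *Nnat*.

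RNA came from 1 sciatic nerve each of 12 mice on the 129/SvPas background at 1 month of age, with 3 males and 1 female in every group. The 4 WT control mice (replicates 4497 to 4500) carried the intact *Mtmr2* gene, which encodes a phosphoinositide phosphatase, and the 4 *Mtmr2* KO mice (4501 to 4504) were null for it and listed without treatment. In the paper the *Mtmr2* KO mice set against the niacin group are called vehicle treated. The 4 niacin-treated mice (4505 to 4508) were also *Mtmr2* null; they received niacin at 120 mg/kg into the peritoneum from postnatal day 10 to day 21, and then slow-release Niacin-SR by gavage until day 30. Niacin-treated WT mice are not analysed here, so the effect of niacin can be described in the *Mtmr2* null background only.

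Imprinted genes are transcribed mainly from the copy inherited from a single parent. *Nnat*, *Igf2*, *Dlk1*, *Peg3*, *Mest*, *Plagl1* and *Ndn* are known as paternally expressed, and *H19*, *Meg3* and *Cdkn1c* as maternally expressed. Many of them are abundant in the fetus and decline after birth, and several neighbours share control regions, such as *Igf2* with *H19* and *Dlk1* with *Meg3*. *Plagl1* encodes a zinc-finger transcription factor that is known to act on other imprinted genes. In the nerve, such RNA can come from Schwann cells, fibroblasts, fat or muscle at its border, and in whole nerve fewer cells of a type and less RNA per cell cannot be told apart.

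*Nnat* lies on chromosome 2 (GRCm38, 157560078 to 157562522, plus strand; GENCODE release M21) inside the span of *Blcap* on the opposite strand, with no exon base shared between them. *H19* (142575529 to 142578143) and *Igf2* (142650766 to 142666816) are neighbours on the minus strand of chromosome 7, which also holds *Ndn*, *Peg3* and *Cdkn1c*. *Dlk1* (109452823 to 109463336) and *Meg3* (109541001 to 109571726) are neighbours on the plus strand of chromosome 12, *Mest* is on chromosome 6 and *Plagl1* on chromosome 10. The sources used here do not say whether counting used the strand, which leaves the counts of overlapping genes uncertain. In this annotation 23.1% of the exon bases of *Mest* are shared with *Copg2* on the opposite strand. *Copg2* was counted, at a mean of 73.4 CPM over the 12 libraries. Of the exon bases of *Igf2*, 62.8% are shared with the same-strand model *Gm49394*. Of those of *Cdkn1c*, 30.6% are shared with the antisense model *Gm44732*. Neither of these models is among the genes of the count table.

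Because the *Plagl1* protein is known to bind runs of G and C, the promoters of the members were searched on both strands for 4 G followed directly by 4 C, and for 4 G, any 6 bases and 4 G. RefSeq promoters (GRCm38.p6, 250 bases before to 50 after a start) matched 8 members with 14 promoters; none was matched for *H19* and *Cdkn1c*. The first pattern was in 1 of these 14 promoters (7.14%) and in 1.08% of all 32851 promoters, and the second in 6 of 14 (42.9%) and in 9.66% of all. The promoters of the members held a median of 13 CG pairs against 7 in all promoters, and the *Nnat* promoter held 17. The matches below are shown, 1 for each member that had any, to let the sites be compared; capitals mark the bases of the pattern, which reads as C on the printed strand where the match is on the other one. Each is printed 5′ to 3′ on the strand of the gene.
*Nnat*, chr2:157560008-157560037, plus strand: gaggagcgCCCCccatcaCCCCtccttctc
*Igf2*, chr7:142658854-142658883, minus strand: cctaagctCCCCtcctgcCCCCtccccgtt
*Dlk1*, chr12:109452691-109452720, plus strand: cgagaggaGGGGgtggggGGGGggggtgac
*Meg3*, chr12:109545362-109545391, plus strand: tggagggtGGGGggaggtGGGGggtggggg
*Plagl1*, chr10:13090601-13090630, plus strand: gctgtcctCCCCcaccgaCCCCcggagccc
*Peg3*, chr7:6730602-6730631, minus strand: gactctgcttgGGGGCCCCtaacactgact
The *Peg3* stretch is the only one with the unspaced pattern. No promoter of *Mest* or *Ndn* held either pattern. A match is a description of letters and was not tested as a binding site.

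Levels are given as CPM, which are counts scaled to the total of each library and by the TMM factors of edgeR, in the order of the replicate numbers. Libraries held 20763951 to 33191106 counts. The targeted gene, *Mtmr2*, was at 128 to 161 CPM in WT control libraries and at 66.8 to 84.7 CPM in 7 of the 8 *Mtmr2* null libraries. Which exons the null allele lacks was not used here, so gene-level counts of all null libraries may include reads from the part that remains. The library labelled *Mtmr2* KO replicate 4503 was at 143 CPM, within the WT control range and above the other null libraries. Whether its label is right was not tested. Some of the results, but not all, are therefore also given without that library. Skeletal muscle markers summed to 3555 and 3536 CPM in niacin replicates 4506 and 4507 and to 29.6 to 117 CPM in the other 10 libraries. Of the 11 muscle markers tested, 8 were called higher in niacin versus *Mtmr2* KO by edgeR, where 0.695% of all genes were called higher. Sensory neuron and axon markers summed to 321 CPM in *Mtmr2* KO replicate 4502 and to 82.5 to 147 CPM elsewhere. Myelinating Schwann cell markers, which define the tissue, summed to 66053 to 127788 CPM in all libraries.

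*Nnat* encodes a small membrane protein of the endoplasmic reticulum, known from neurons and from differentiating fat cells. It was at 39.1, 41.3, 51.1 and 97.5 CPM in WT control nerves, at 12.96, 18.7, 7.79 and 9.28 CPM in *Mtmr2* KO nerves and at 12.1, 31.1, 41.6 and 18.4 CPM in niacin-treated nerves. Every *Mtmr2* KO library was below every WT control library, whereas the niacin-treated libraries overlapped both groups. The log2 fold change of *Mtmr2* KO versus WT control, which chose the gene, was -2.24 ± 0.41 (SE, n = 4 per group), and -2.07 without replicate 4503. For niacin versus *Mtmr2* KO it was 1.09 ± 0.40, or 0.92 without replicate 4503, and for niacin versus WT control -1.15 ± 0.39. These comparisons share libraries with the difference that chose *Nnat* and are given without a test.

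The niacin values of *Nnat* split with the muscle markers. Both libraries with high muscle markers held the highest *Nnat* levels of their group, 31.1 and 41.6 CPM, and the other 2 were at 12.1 and 18.4 CPM, where the *Mtmr2* KO libraries reached 18.7 CPM. Without replicates 4506 and 4507, the log2 fold change of *Nnat* was 0.32 for niacin versus *Mtmr2* KO and -1.94 for niacin versus WT control. Because these replicates held the highest *Nnat* of their group, leaving them out had to lower its mean, whatever their muscle markers. Muscle sums were 35.3 to 80.9 CPM in WT control, where *Nnat* was at 39.1 to 97.5 CPM. They were 29.6 to 75.5 CPM in *Mtmr2* KO, where *Nnat* was at 7.79 to 18.7 CPM. The part of muscle RNA in the *Nnat* level was not tested.

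Fat cell markers are given beside *Nnat*. The 15 white adipocyte markers summed to 4955 to 6367 CPM in WT control libraries, 1369 to 8174 CPM in *Mtmr2* KO libraries and 4043 to 7855 CPM in niacin-treated libraries, with none of them at 0 in all libraries. Of these, 14 of 15 had a negative log2 fold change in *Mtmr2* KO versus WT control, and 2 were called lower by edgeR (quasi-likelihood test, p adjusted over all genes after Benjamini and Hochberg), where 0.267% of all genes were called: *Plin1*, which coats lipid droplets (log2 fold change -1.84 ± 0.32, adjusted p = 0.0448), and *Lep*, the hormone leptin (-2.03 ± 0.29, adjusted p = 0.0364). Leaving out 1 library at a time kept these calls in 4 and 5 of 12 fits, with log2 fold changes of -2.13 to -1.61 and -2.17 to -1.78. Without replicate 4503 they were -1.90 and -1.89, and neither was called (adjusted p = 0.0834 and 0.0633, edgeR). At an unadjusted p under 0.05 edgeR had 6 of the 15, and 2976 of all 17257 genes. DESeq2 called 5 of the 15 lower and limma-voom 7, against 402 and 99 over all genes. In niacin versus *Mtmr2* KO, 13 of 15 were positive (median 0.62) and *Lep* was called higher (1.84 ± 0.29, adjusted p = 0.0383, edgeR), in 5 of 12 fits without 1 library. Without replicate 4503 it was 1.70 (adjusted p = 0.0686, edgeR), and without both niacin libraries with high muscle markers 1.26 (adjusted p = 0.276, edgeR). At an unadjusted p under 0.05 edgeR had 5 of the 15, and 3472 of all 17257 genes. DESeq2 called 3 of the 15 higher and limma-voom 9, against 491 and 808 over all genes. The *Mtmr2* KO library with the highest adipocyte sum, replicate 4502 at 8174 CPM, also had the highest *Nnat* of its group, 18.7 CPM, which was below every WT control library. In WT control the highest adipocyte sum, 6367 CPM, was in replicate 4498, with *Nnat* at 41.3 CPM against 97.5 CPM in replicate 4500. In niacin-treated nerves the highest sum, 7855 CPM, was in replicate 4508, with *Nnat* at 18.4 CPM against 41.6 CPM in replicate 4507. The part of fat cells in the *Nnat* level was not tested.

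**Figure D1:**
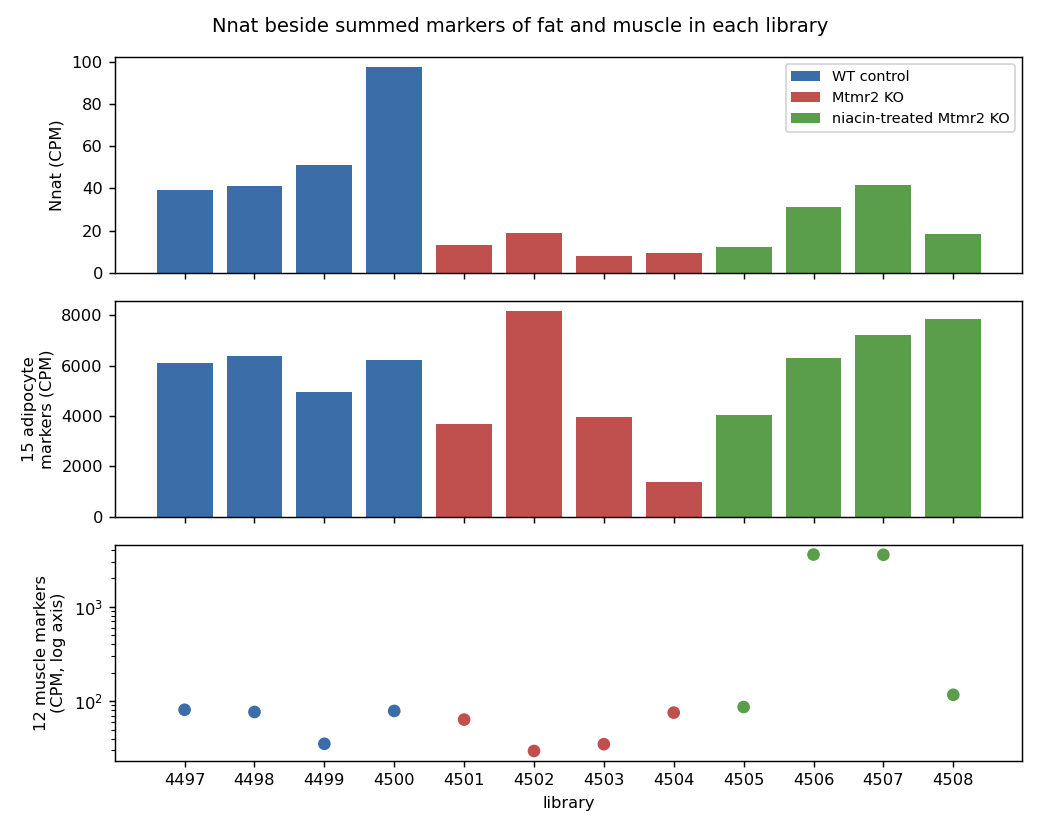
*Nnat* in CPM (top), summed CPM of 15 adipocyte markers (middle) and summed CPM of 12 skeletal muscle markers on a log axis (bottom) in each of the 12 libraries, coloured by group. Niacin replicates 4506 and 4507 stand apart in muscle markers, at 3555 and 3536 CPM, and hold the highest *Nnat* of their group, 31.1 and 41.6 CPM.

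Of the secreted and membrane ligands, *Igf2*, the fetal insulin-like growth factor, was at 186, 215, 154 and 151 CPM in WT control nerves, at 150, 129, 134 and 139 CPM in *Mtmr2* KO nerves and at 183, 223, 147 and 121 CPM in niacin-treated nerves. The *Mtmr2* KO libraries all lay below WT control, the closest pair at 151 and 150 CPM, and the niacin-treated libraries spanned both groups. Its log2 fold change was -0.36 ± 0.18 for *Mtmr2* KO versus WT control, and 0.29 ± 0.18 for niacin versus *Mtmr2* KO (adjusted p = 0.387, edgeR's quasi-likelihood test).

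*Dlk1*, a membrane protein with EGF repeats that is known to hold back fat cell differentiation, was at 27.6, 22.5, 24.9 and 19.4 CPM in WT control nerves, at 21.4, 10.4, 18.3 and 9.77 CPM in *Mtmr2* KO nerves and at 14.1, 20.03, 13.8 and 8.96 CPM in niacin-treated nerves. Both groups of null mice had lower means than WT control, with overlap. The log2 fold change was -0.66 ± 0.27 for *Mtmr2* KO versus WT control and -0.08 ± 0.27 for niacin versus *Mtmr2* KO (adjusted p = 0.899, edgeR). In niacin versus WT control it was -0.73 ± 0.27 and did not pass (adjusted p = 0.144, edgeR).

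Of the long non-coding RNAs, *H19* was at 166, 105, 145 and 174 CPM in WT control nerves, at 155, 109, 30.5 and 137 CPM in *Mtmr2* KO nerves and at 261, 225, 248 and 224 CPM in niacin-treated nerves. All 4 niacin-treated libraries were above all 8 others, and the low value of 30.5 CPM was that of the library labelled *Mtmr2* KO replicate 4503. The log2 fold change of niacin versus *Mtmr2* KO was 1.15 ± 0.35 and did not pass the test across all genes (adjusted p = 0.102, edgeR). Without replicate 4503 it was 0.84 (adjusted p = 0.0936, edgeR), and without the niacin libraries with high muscle markers it was 1.16 (adjusted p = 0.341, edgeR). DESeq2 on all 12 libraries called it (adjusted p = 0.0221). In niacin versus WT control the log2 fold change was 0.70 ± 0.35 (adjusted p = 0.224, edgeR), and in *Mtmr2* KO versus WT control -0.45 ± 0.35, or -0.15 without replicate 4503.

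*Meg3*, from the *Dlk1* domain, was at 194, 184, 165 and 164 CPM in WT control nerves, at 154, 146, 157 and 143 CPM in *Mtmr2* KO nerves and at 150, 185, 239 and 263 CPM in niacin-treated nerves. The *Mtmr2* KO libraries lay below WT control, and the niacin-treated libraries spread widely, from within the *Mtmr2* KO range to above all WT control libraries. Its log2 fold change was -0.24 ± 0.16 for *Mtmr2* KO versus WT control and 0.48 ± 0.16 for niacin versus *Mtmr2* KO (adjusted p = 0.128, edgeR). Limma-voom with sample quality weights called *Meg3* in niacin versus *Mtmr2* KO, where it called 2007 genes. *Rian* and *Mirg*, maternally expressed RNAs from the same chromosome 12 domain, had log2 fold changes of 0.78 ± 0.27 and 0.76 ± 0.21 in niacin versus *Mtmr2* KO (adjusted p = 0.135 and 0.0807, edgeR), and *Rian* was at 36.6 CPM in replicate 4503, against 93.9 to 117 CPM in the other *Mtmr2* KO libraries.

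Of the transcription factors, *Plagl1* was at 32.3, 29.2, 26.2 and 26.3 CPM in WT control nerves, at 23.7, 25.0, 27.1 and 21.8 CPM in *Mtmr2* KO nerves and at 35.3, 32.9, 35.3 and 33.3 CPM in niacin-treated nerves. Every niacin-treated library was above all 8 others. It rose in niacin versus *Mtmr2* KO by a log2 fold change of 0.48 ± 0.11 (adjusted p = 0.0491, edgeR's quasi-likelihood test), the only one of the 9 tested members to pass. Leaving out any single library other than *Mtmr2* KO replicate 4502 ended this call, with log2 fold changes of 0.44 to 0.54 and adjusted p of 0.0112 to 0.179 over the 12 fits. Without replicate 4503 the log2 fold change was 0.54 (adjusted p = 0.0844, edgeR) and without both niacin libraries with high muscle markers 0.48 (adjusted p = 0.306, edgeR). In *Mtmr2* KO versus WT control it was -0.22 ± 0.11, and in niacin versus WT control 0.26 ± 0.11 (adjusted p = 0.178, edgeR).

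*Peg3*, a zinc-finger protein, was at 155, 146, 139 and 109 CPM in WT control nerves, at 108, 92.4, 164 and 109 CPM in *Mtmr2* KO nerves and at 125, 116, 121 and 116 CPM in niacin-treated nerves. The groups overlapped, and the highest value of all 12 was in the library labelled *Mtmr2* KO replicate 4503. Its log2 fold change was -0.22 ± 0.17 for *Mtmr2* KO versus WT control, or -0.42 without replicate 4503, and 0.01 ± 0.17 for niacin versus *Mtmr2* KO (adjusted p = 0.971, edgeR). Its neighbour *Zim1* was at 4.13 to 8.73 CPM in WT control, 3.10 to 5.22 CPM in *Mtmr2* KO and 6.07 to 9.70 CPM in niacin-treated nerves (niacin versus *Mtmr2* KO 0.95 ± 0.25, adjusted p = 0.070, edgeR).

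*Mest*, an enzyme of the hydrolase family whose RNA is known to rise in growing fat, was at 54.7, 27.1, 39.4 and 29.6 CPM in WT control nerves, at 27.9, 19.01, 18.5 and 26.8 CPM in *Mtmr2* KO nerves and at 48.2, 31.0, 32.5 and 27.9 CPM in niacin-treated nerves. The niacin-treated libraries were above *Mtmr2* KO only by less than the rounding of the closest pair, both 27.9 CPM. Its log2 fold change was -0.71 ± 0.24 for *Mtmr2* KO versus WT control and 0.60 ± 0.24 for niacin versus *Mtmr2* KO (adjusted p = 0.185, edgeR).

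Of the growth inhibitors, *Cdkn1c*, which blocks cyclin-dependent kinases, was at 74.4, 75.1, 94.7 and 79.5 CPM in WT control nerves, at 99.8, 73.7, 111 and 71.1 CPM in *Mtmr2* KO nerves and at 67.7, 67.1, 61.6 and 51.6 CPM in niacin-treated nerves. It was the only member with a higher mean in *Mtmr2* KO than in WT control (log2 fold change 0.14 ± 0.16, or 0.01 without replicate 4503), and all niacin-treated libraries were below all 8 others. The log2 fold change was -0.52 ± 0.16 for niacin versus *Mtmr2* KO (adjusted p = 0.104, edgeR) and -0.38 ± 0.16 for niacin versus WT control (adjusted p = 0.174, edgeR); it passed neither test. DESeq2 called the niacin versus *Mtmr2* KO difference (adjusted p = 0.0429).

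*Ndn*, a protein of the MAGE family that is known to restrain proliferation, was at 78.1, 72.1, 78.4 and 80.9 CPM in WT control nerves, at 66.9, 50.3, 46.7 and 77.6 CPM in *Mtmr2* KO nerves and at 89.0, 68.0, 79.8 and 70.0 CPM in niacin-treated nerves. In *Mtmr2* KO, 3 libraries were below every WT control library, and replicate 4504 was within the WT control range. Its log2 fold change was -0.36 ± 0.16 for *Mtmr2* KO versus WT control and 0.35 ± 0.16 for niacin versus *Mtmr2* KO (adjusted p = 0.240, edgeR).

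**Figure D2:**
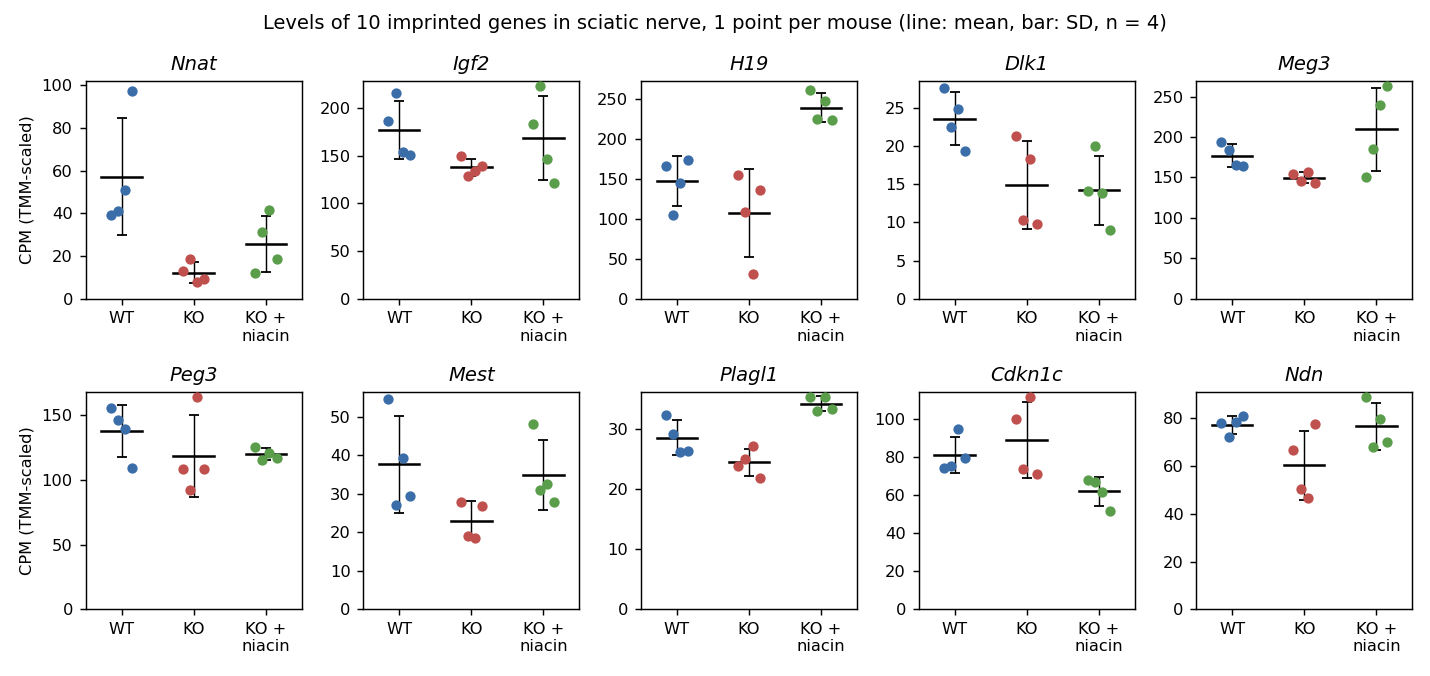
CPM of the 10 imprinted genes (1 panel each, axes from 0), with 1 point per mouse in WT, *Mtmr2* KO and niacin-treated *Mtmr2* KO nerves; lines are means and bars SD (n = 4). The KO points of *Nnat* all lie below the WT points, and *H19* and *Plagl1* are highest, and *Cdkn1c* lowest, in the niacin-treated nerves.

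In sum, 9 of the 10 members had a lower mean in *Mtmr2* KO than in the controls. Their median log2 fold change was -0.36, against 0.03 over all genes tested. Of the members, 3 (*Nnat*, *Igf2* and *Meg3*) had all *Mtmr2* KO libraries below all WT control libraries, a pattern shown by 5.46% of genes. This contrast chose *Nnat*, and nothing is read from these counts. Among the other 9 members, 8 had a negative log2 fold change (median -0.36), between -0.71 and 0.14. The summed level of the other 9 members was 834 to 968 CPM in WT control, 654 to 807 CPM in *Mtmr2* KO and 917 to 978 CPM in niacin-treated libraries, and the *Mtmr2* KO sums lay below all 8 others. Markers of other cell types are given beside them. Of the fibroblast markers, 8 of 10 had a negative log2 fold change in *Mtmr2* KO versus WT control (median -0.71), and their sum was 15213 to 23682 CPM in WT control and 10643 to 16697 CPM in *Mtmr2* KO. Of the endothelial cell and pericyte markers, 10 of 10 were negative (median -0.41), with sums of 745 to 827 CPM in WT control and 391 to 863 CPM in *Mtmr2* KO. The sums overlapped in both lists. EdgeR called 0 of 10 in the fibroblast and in the endothelial list, with 4 and 3 at an unadjusted p under 0.05, as 2976 of 17257 genes were. DESeq2 called 0 and 1, and limma-voom 0 in each. Other lists went the other way. Positive were 10 of 11 sensory neuron and axon markers (median 1.15), 8 of 10 of myelinating Schwann cells (0.22) and 6 of 8 of macrophages (0.20). Negative were 9 of 11 muscle, 8 of 10 cycling cell, 7 of 10 adipocyte precursor and 4 of 6 perineurial markers. The part of these cells in the member levels was not tested.

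In niacin versus *Mtmr2* KO, 6 of the 9 other members had an unadjusted p under 0.05 (edgeR), as 3472 of 17257 genes did. Of these 9 members, 7 had a positive log2 fold change (median 0.35, against -0.04 over all genes tested). Beside them, 10 of 10 markers of cycling cells were positive (median 0.90), with sums of 24.4 to 41.0 CPM in *Mtmr2* KO and 32.1 to 80.2 CPM in niacin-treated libraries. All 10 markers of myelinating Schwann cells were negative (median -0.55), with sums of 93943 to 127788 CPM in *Mtmr2* KO and 66053 to 106561 CPM in niacin-treated libraries, and the values of the adipocyte and muscle markers are given above. Both pairs of ranges overlapped. EdgeR called 0 of 10 in each list, with 6 cycling and 5 Schwann cell markers at an unadjusted p under 0.05; DESeq2 called 2 and 3, and limma-voom 0 and 4. The part of these cells in the member levels was not tested. The call of *Plagl1* was 1 of 9, where 1.43% of all genes were called and 0.695% were called higher. Without *Mtmr2* KO replicate 4502 edgeR called 4180 genes in this comparison, and 0 in 5 of the other 11 fits that left out 1 library, so the share rests on single libraries. *H19*, *Plagl1* and, by a margin under its rounding, *Mest* were above *Mtmr2* KO in every niacin-treated library, as 3.6% of genes were, and *Cdkn1c* was below in every one, as 3.4% of genes were. Against WT control, *H19* and *Plagl1* were higher in every niacin-treated library, as 14.9% of genes were, and *Cdkn1c* was lower in every one, as 16.6% of genes were. In niacin versus WT control, edgeR called 0 of the 9 members and 0% of genes at an adjusted p under 0.05; at an unadjusted p under 0.05 there were 3 of 9 members and 4254 genes, and DESeq2 called 1246 genes, none of the 9 members among them. Limma-voom with sample quality weights called 7311 genes, including *H19*, *Dlk1*, *Plagl1* and *Cdkn1c*. The comparisons share libraries, so their values stand side by side and are not independent.

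**Figure D3:**
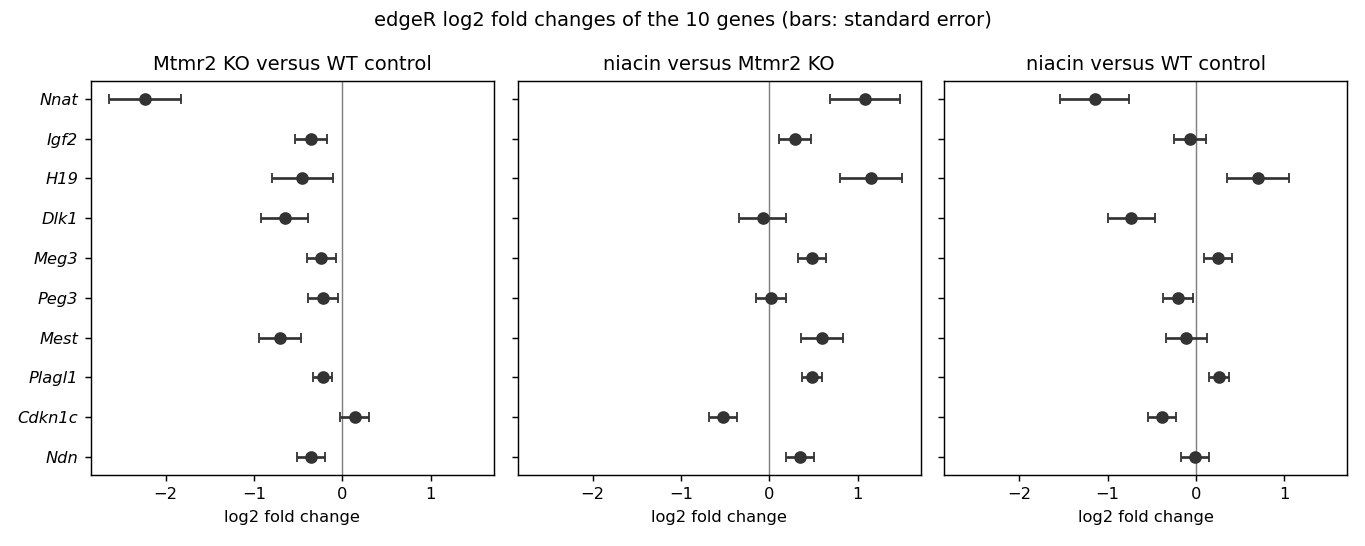
Log2 fold changes with standard errors (bars) of the 10 genes in the 3 comparisons, from the edgeR fit to all 12 libraries; the vertical line marks no difference. *Nnat* lies at -2.24 in KO versus WT, the contrast that chose it, and *H19* at 1.15 in niacin versus KO.

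Scaled by length, as mean CPM per kilobase of merged exons ± SD (n = 4), *H19* was the highest member in each group, at 59.9 ± 12.6 in WT control nerves, 43.8 ± 22.3 in *Mtmr2* KO nerves and 97.4 ± 7.41 after niacin. In *Mtmr2* KO it did not differ beyond its spread from *Cdkn1c*, at 43.6 ± 9.69. *Nnat*, at 31.3 ± 14.9 in WT control, ranked 3 of 10, next to *Igf2* at 30.9 ± 5.30, from which it did not differ beyond its spread. *Nnat* ranked 7 in *Mtmr2* KO at 6.65 ± 2.64, between *Meg3* (8.28 ± 0.364) and *Mest* (5.84 ± 1.26), and 5 in niacin-treated nerves at 14.1 ± 7.20, with these neighbours within its spread. *Plagl1* and *Dlk1* were the lowest members in each group, at 3.65 ± 0.369 and 4.17 ± 0.618 in WT control.

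Whether mice with high *Nnat* for their group also had high levels of the other members was tested on deviations of log2 CPM from the group means over the 12 libraries, with exact permutation within groups and Benjamini-Hochberg adjustment over the 9 relations. *Peg3* ran opposite to *Nnat*, with Pearson's r = -0.67 (adjusted p = 0.0293, exact permutation) and Spearman's rho = -0.79 (adjusted p = 0.0202, exact permutation). Without WT control replicate 4500 and *Mtmr2* KO replicate 4503, which lie farthest from the median in *Peg3*, r was -0.58. Leaving out 1 library at a time gave r of -0.78 to -0.55, with the adjusted p under 0.05 in 3 of 12 fits. Without replicate 4503 alone r was -0.71 and did not pass (adjusted p = 0.117, exact permutation). For the other 8 members r ranged from -0.40 for *Mest* to 0.32 for *H19*, none of them passing, and leaving out 1 library turned its sign for *Dlk1*, *Meg3*, *Cdkn1c* and *Ndn*. No member moved in the same direction as *Nnat* beyond this test.

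**Figure D4:**
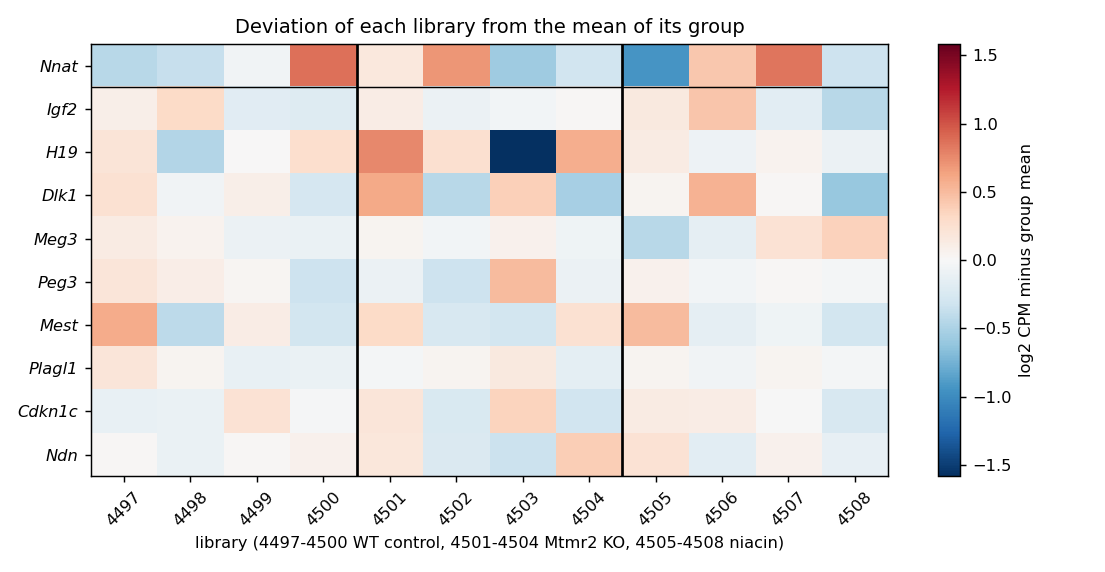
Deviation of log2 CPM from the group mean for each member (rows) in each library (columns; vertical lines part the groups), red above and blue below the mean. *Nnat* is highest for its group in replicates 4500, 4502 and 4507, and the strongest blue is *H19* in replicate 4503; *Peg3* is opposite to *Nnat* in replicates 4500 and 4503.

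Over all 12 libraries, the genes most like *Nnat* by Pearson's r of log2 CPM were *Myct1* (0.94), *Fam241a* (0.92), *Rai2* (0.91), *Kcnj14* (0.90) and *Cish* (0.90), none of them a member. Among 17256 genes ranked by this r, the nearest member was *Dlk1*, ranked 1651 with r = 0.47, followed by *Ndn*, ranked 1905 with r = 0.44. *Cdkn1c* was the farthest, ranked 11708 with r = -0.15. These r include the group differences on which *Nnat* was chosen, and the libraries share composition, so they are descriptions. *Blcap*, within whose span *Nnat* lies, was at 40.2 to 46.4 CPM in WT control, 29.3 to 36.2 CPM in *Mtmr2* KO and 33.3 to 44.1 CPM in niacin-treated nerves, with a log2 fold change of -0.46 ± 0.12 in *Mtmr2* KO versus WT control (adjusted p = 0.0964, edgeR).

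A further list of 46 imprinted genes, of which 37 were tested, gave a median log2 fold change of 0.10 in *Mtmr2* KO versus WT control, with 21 positive and 16 negative. *Slc22a3*, an organic cation transporter, was the 1 gene called, lower in *Mtmr2* KO (log2 fold change -0.99 ± 0.17, adjusted p = 0.0448, edgeR), where 0.267% of all genes were called. Without replicate 4503 it was -0.94 (adjusted p = 0.0834, edgeR), and the call was kept in 4 of 12 fits without 1 library. In niacin versus *Mtmr2* KO, 3 of 37 rose and 2 fell by edgeR's quasi-likelihood test, where 1.43% of all genes were called. Those that rose were *Grb10*, an adaptor that restrains insulin and IGF receptor signalling (0.54 ± 0.10, adjusted p = 0.0401), *Slc22a3* (0.79 ± 0.17, adjusted p = 0.0457) and the amino acid transporter *Slc38a4* (1.06 ± 0.13, adjusted p = 0.0254). *Peg10* (-0.92 ± 0.21, adjusted p = 0.0467, edgeR) and *Zrsr1* (-0.66 ± 0.15, adjusted p = 0.0458, edgeR) fell. Without both niacin libraries with high muscle markers, edgeR called 0 of 18555 genes, with 2192 at an unadjusted p under 0.05; the log2 fold changes were then 0.52 for *Grb10*, 0.56 for *Slc22a3*, 1.06 for *Slc38a4*, -0.98 for *Peg10* and -0.70 for *Zrsr1*, with adjusted p of 0.276 to 0.326. Without replicate 4503, edgeR called 13 genes, of these 5 only *Slc38a4* (1.02, adjusted p = 0.0477); *Grb10* was at 0.51, *Slc22a3* at 0.74, *Peg10* at -0.88 and *Zrsr1* at -0.50. Leaving out 1 library at a time kept the call of *Slc38a4* in 7 of 12 fits and that of each of the other 4 in 2 of 12. In niacin versus WT control edgeR called 0 of the 37, with 7 at an unadjusted p under 0.05. DESeq2 called 1 and limma-voom 13. Over all genes tested, 17257 in edgeR and limma-voom and 17241 in DESeq2, these numbers were 0, 4254, 1246 and 7311.

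Of 20 genes of the IGF and growth pathway, 0 were called in *Mtmr2* KO versus WT control by edgeR, with 5 at an unadjusted p under 0.05. DESeq2 called 2 and limma-voom 0. Over all genes tested these numbers were 46, 2976, 718 and 108. In niacin versus *Mtmr2* KO, *Grb10* rose as above and *Cdkn1b*, an inhibitor of cyclin-dependent kinases like *Cdkn1c*, fell (-1.09 ± 0.19, adjusted p = 0.0388, edgeR). These were the 2 of 20 called, where edgeR called 1.43% of all genes. At an unadjusted p under 0.05 edgeR had 12 of the 20, DESeq2 called 7 and limma-voom 8. Over all genes tested these numbers were 3472, 1211 and 2007. *Cdkn1b* was at -0.92 without replicate 4503 (adjusted p = 0.0686, edgeR) and at -1.17 without both niacin libraries with high muscle markers (adjusted p = 0.276, edgeR), and its call was kept in 3 of 12 fits without 1 library. The receptors of *Igf2* did not pass in niacin versus *Mtmr2* KO. The log2 fold change was -0.83 ± 0.20 for *Igf1r* (adjusted p = 0.056, edgeR). It was 0.03 ± 0.18 for *Igf2r*, which takes the ligand up for degradation (adjusted p = 0.938, edgeR). In niacin versus WT control edgeR called 0 of the 20, with 8 at an unadjusted p under 0.05. DESeq2 called 3 and limma-voom 13. Over all genes tested these numbers were 0, 4254, 1246 and 7311.

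**Figure D5:**
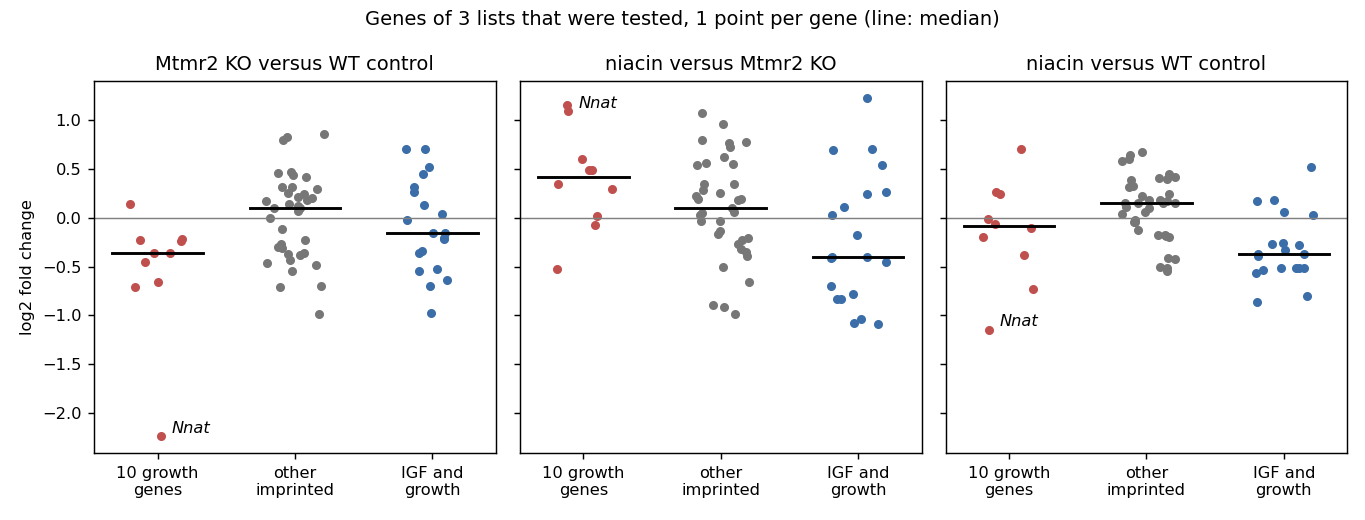
Log2 fold changes of the genes that were tested from 3 lists in the 3 comparisons, 1 point per gene, with the median as a line: the 10 imprinted growth genes (*Nnat* marked), 37 other imprinted genes and 20 genes of the IGF and growth pathway. The median of the 10 lies at -0.36 in KO versus WT and at 0.41 in niacin versus KO.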

How the data were processed

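PolyA-selected RNA of 12 sciatic nerves was sequenced as paired ends on an Illumina HiSeq. The authors mapped reads to GRCm38 with STAR and deposited whole-number counts per Ensembl gene without normalization; CASAVA 1.9 and DESeq2 are named in their processing notes. The sources used here do not give the counting program, the annotation or the use of strand. Deposited DESeq2 tables hold fold changes, scores and p-values, and only their gene symbols were used. No per-sample column was left out.

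Samples were grouped by their titles. Totals were 20763951 to 33191106 counts. With edgeR 4.0.16 (R 4.3.3), filterByExpr over the 3 groups chose the genes, TMM scaled the libraries, and a single quasi-likelihood model over 12 libraries gave the 3 comparisons (two-sided, Benjamini-Hochberg over 17257 genes, called under an adjusted p of 0.05). The code was tested on simulated data. CPM used the TMM factors, log2 values a prior count of 2, and SE is the log2 fold change divided by the root of F. Alternatives were DESeq2 1.42.0, DESeq2's size factors, limma-voom (limma 3.58.1) with quality weights, 2-group fits, both filters, *Xist* as a covariate and each library left out. Leaving out niacin replicates 4506 and 4507 together was chosen after seeing the data.

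The members and lists were chosen with earlier results of these data known. The text names the members, the called genes and member neighbours of the lists, *Igf1r* and *Igf2r*, *Mtmr2*, the 5 genes most like *Nnat*, and marker genes; not all are reported. Each library is a separate mouse, so p-values measure the spread between mice.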

Additional observations from a re-analysis of the deposited data

Results flagged for a closer look

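In 63 sets of 4 libraries examined for a library far from its group, 2 were found, and chance alone would mark about 1 in 20. Neither was a level of an imprinted member. The summed level of adipocyte precursor markers in WT control replicate 4500 was 1092 CPM, against 898 CPM for the nearest library of its group. Replicate 4500 also held the highest *Nnat*, 97.5 CPM. In the other groups the highest precursor sums were 904 CPM in *Mtmr2* KO replicate 4504 and 1068 CPM in niacin replicate 4505. *Nnat* was at 9.28 and 12.1 CPM there, neither of them the highest of its group. The summed skeletal muscle markers in WT control replicate 4499 were 35.3 CPM, the lowest of the group, against 76.7 CPM for the nearest.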

How the results depend on the processing

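No paired analysis was possible because the groups share no replicate numbers. In *Mtmr2* KO versus WT control, 9 members had a negative log2 fold change in every fit run. The number called among the other 9 in niacin versus *Mtmr2* KO (1, *Plagl1*) was 3 with DESeq2 and 3 with limma-voom, and 0 with DESeq2's size factors, in the 2-group fit, with *Xist* as a covariate and without both niacin libraries with high muscle markers; without a filter it was 1, *H19* (adjusted p = 0.0425, edgeR) and not *Plagl1*. Over all genes, DESeq2 called 1211 of 17241 in niacin versus *Mtmr2* KO and limma-voom 2007 of 17257. In niacin versus WT control the number of members called (0) was 4 with limma-voom and 4 in the 2-group fit. Over all genes these called 7311 of 17257 and 5586 of 16501. Over the fits that left out 1 library, members called ranged from 0 to 2 in niacin versus *Mtmr2* KO and from 0 to 1 in niacin versus WT control. Both maxima were without replicate 4502, where 4180 and 3826 of 17716 genes were called. The number of relations to *Nnat* that passed (1, *Peg3*) ranged from 0 to 1. The causes were not tested.

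These directions turned. *Ndn* in niacin versus WT control was 0.000447 with at least 10 counts in every library and 0.015 without both niacin libraries with high muscle markers. Over the fits without 1 library, niacin versus *Mtmr2* KO ranged from -0.30 to 0.15 for *Dlk1* and -0.10 to 0.21 for *Peg3*, and niacin versus WT control from -0.253 to 0.0598 for *Igf2*, -0.31 to 0.12 for *Mest* and -0.098 to 0.0267 for *Ndn*. The r with *Nnat* ranged from -0.22 to 0.11 for *Dlk1*, -0.46 to 0.38 for *Meg3*, -0.252 to 0.0817 for *Cdkn1c* and -0.39 to 0.11 for *Ndn*. *Nnat* in the fits without 1 library ranged from -2.52 to -1.85 in *Mtmr2* KO versus WT control and from 0.76 to 1.35 in niacin versus *Mtmr2* KO, where it was 0.32 without both niacin libraries with high muscle markers.

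Over all genes, edgeR called 8 higher and 38 lower in *Mtmr2* KO versus WT control; DESeq2 called 316 and 402, limma-voom 9 and 99, the fit without a filter 107 and 234, the 2-group fit 0 and 0, and the *Xist* fit 0 and 12. In niacin versus *Mtmr2* KO, edgeR called 120 and 126; DESeq2 called 491 and 720, limma-voom 808 and 1199, the fit without a filter 312 and 261, the 2-group fit 0 and 0, and the *Xist* fit 26 and 24. In niacin versus WT control, edgeR called 0; DESeq2 called 273 and 973, limma-voom 3596 and 3715, the fit without a filter 97 and 214, and the 2-group fit 2682 and 2904. Leaving out 1 library gave totals of 0 to 457 in *Mtmr2* KO versus WT control (457 without replicate 4501), 0 to 4180 in niacin versus *Mtmr2* KO and 0 to 3826 in niacin versus WT control, the highest of both without *Mtmr2* KO replicate 4502, so the shares of genes called rest on single libraries.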
